A study of Caenorhabditis elegans with 46 samples.

Results

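The genes described here are the math and bath genes of Caenorhabditis elegans, taken as every gene whose symbol is math or bath followed by a number and which had a probe set with that symbol alone. They numbered 85, made up of 47 math genes and 38 bath genes, among 17118 genes named in this way on the array. Each gene was represented by its brightest probe set over all 46 arrays. The members were chosen by their symbols and not by any measured value, and the protein domains behind the symbols were not checked against sequence.

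The MATH domain is a protein fold shared by meprins and TRAF proteins that holds short stretches of other proteins. The BTB domain lets proteins pair and bind the cullin CUL-3, the scaffold of a class of ubiquitin ligases. Proteins with both domains, of which MEL-26 is the best-studied worm example, act as adaptors that bring chosen substrates to CUL-3 to be marked with ubiquitin, and the bath symbol stands for this pair of domains. The math symbol stands for genes with the MATH domain, of which MATH-33 is a deubiquitylating enzyme related to human USP7 that acts on the FOXO transcription factor DAF-16. Substrates of most other family members are not known.

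RNA of whole worms was measured on Affymetrix arrays in 2 separate sets, which address the response to fasting over time and its dependence on the FOXO factor daf-16, the AP-1 factor jun-1 and the JNK-type kinase kgb-1. The time course used the wild-type strain N2 with 2 arrays per group. Fed N2 worms were sampled at 0, 24 and 48 h, as adults of day 2, 3 and 4. Worms without food were sampled after 3, 6, 9, 12 and 18 h (day 2), 24 and 36 h (day 3) and 48 h (day 4). Groups of the mutant set held 3 arrays, and the set compared N2 with mutants of jun-1, daf-16 or kgb-1 in the N2 background, with a fed and a fasted group of every genotype, all as adults of day 4. Neither the lesion of a mutant nor the time without food in the mutant set is given in the sources used here. Per the labels' protocols, the 2 and 3 samples of a group came from independent experiments.

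Values below are deposited intensities, 1 per probe set and array, and log2 differences are of log2(intensity + 16) after quantile scaling within a set, which makes the change of a dim gene look smaller. A gene was called when its adjusted p in limma was under 0.05, with p adjusted over 22548 probe sets. Errors of log2 values are standard errors (SE) with n = 2 per group in the time course and n = 3 in the mutant set, and a probe set's brightness cannot be set against that of another gene. The arrays' median intensities were 60.1 to 84 (time course) and 60.2 to 85.4 (mutant set). In the time course they were 60.1 to 66.9 in fed arrays and 75 to 84 in fasted arrays from 12 h on. In N2 of the mutant set they were 74.1 to 77.4 in fed and 82.1 to 84 in fasted arrays. Comparisons of deposited intensities below are without correction for this. The lowest mean correlation of an array with its group was 0.986 among N2 arrays of the time course and 0.947, a fasted daf-16 array, in the mutant set. In fed worms of the mutant set the jun-1 probe set read 705 ± 99.1 (SD, n = 3) in N2 and 19.2 ± 3.85 in jun-1. The kgb-1 probe set read 173.7 ± 17.7 in N2 and 186.7 ± 33.3 in kgb-1, and the daf-16 probe set 559 ± 36.6 in N2 and 413 ± 96.1 in daf-16, which checks nothing where a probe set lies outside the altered part of the gene.

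All 85 members were found in the reference gene table (assembly WBcel235), which lists 92 genes of the family, 79 of them on chromosome II. Of the measured members 76 lie on chromosome II, 3 each on chromosomes I, III and V, and 19 are annotated there as pseudogenes. Next to each other stand 58 of the 92, and 73 fall into 8 runs in which successive members are at most 5 genes apart. The longest run holds 43 genes, 29 math and 14 bath, all of them measured. Neighbouring family members are similar in sequence, so probe sets may share RNA. By the array maker's suffixes 68 of the members' probe sets are unique to a gene, 9 match several transcripts (s) and 8 may also bind other genes (x). In 18 members, 16 math and 2 bath, the mean intensity was under 32 in every group, close to the lowest deposited value of 16.0003. None of these 18 was called at 48 h. The choice nearly fixes this, because a dim gene that rose above 32 in any group is not among them. Examples are math-10, math-19 and math-22, with fed means of 23.8, 25.2 and 22 at 48 h.

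After 48 h without food, members of the family moved in both directions, and the math and bath genes divided differently. Of 47 math genes 9 rose and 0 fell. Of 38 bath genes 5 rose and 13 fell. Among these, 16 math and 2 bath genes had means under 32 in every group, where a fall could hardly be seen. Fed means at 48 h were also under 32 in math-10, math-19, math-22, math-35 and math-41, which rose (22 to 31.6). The other math genes that rose had fed means of 39.1 to 115, and the bath genes that fell had 39 to 1110. The part of brightness in this division was not tested. Of all genes on the array 31.3% were called in this comparison (16.7% higher and 14.6% lower), against 27 of the 85 members or 31.8%, so the family as a whole was called at the rate of the array. The median log2 difference was 0.07 over the math genes, -0.17 over the bath genes and -0.02 over all genes. Without quantile scaling 22 members were higher and 10 lower, which moved the share of higher calls from 51.9% to 68.8%, and no math gene was called lower on that scale either (15 math and 7 bath genes higher, 10 bath genes lower). Of all genes 23% were then higher and 10.2% lower.

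Among the members with the largest rise, bath-31 read 52.5 and 57.1 in the fed arrays at 48 h and 217 and 215 in the fasted arrays. The fasted arrays lay far above the fed ones, and the log2 difference was 1.47 ± 0.24 (adjusted p = 0.000206 in limma). Both bath-31 and bath-38 stand alone on chromosome II, outside the runs. In bath-38 the fed arrays at 48 h read 289.5 and 320.1 and the fasted arrays 598.5 and 639.7. The arrays did not overlap and the difference was 0.97 ± 0.14 (adjusted p = 6.55e-05). The adjacent genes bath-10 and bath-9 rose by 0.95 ± 0.20 and 0.71 ± 0.21. The 9 math genes that rose were led by math-24 (0.87 ± 0.14), followed by math-35 (0.74 ± 0.15), math-20 (0.73 ± 0.14), math-22 (0.73 ± 0.11), math-39 (0.62 ± 0.11) and math-9 (0.60 ± 0.22). The remaining 4 members that rose, math-19, math-41, bath-45 and math-10, did so by 0.36 to 0.54. Adjusted p ran from 6.55e-05 for bath-38 to 0.0458 for math-9 among the 14 that rose. Probe sets of math-9, math-19 and math-20 carry the x suffix, so RNA of other genes may add to their values. Those of bath-31 and bath-38 carry the s suffix and match several transcripts, as do those of bath-41 and bath-26, which fell.

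The largest fall was in bath-19. Its fed arrays at 48 h read 156.3 and 128.1 and its fasted arrays 66.0 and 63.3, so both fasted arrays were about as low as each other and below both fed arrays. The log2 difference was -1.19 ± 0.21 (adjusted p = 0.000519 in limma). Next came bath-12, annotated as a pseudogene, with 122.6 and 119.8 in fed and 88.7 and 67.9 in fasted worms (-0.81 ± 0.14). The others that fell by over 0.6 were bath-1 (-0.80 ± 0.13), bath-29 (-0.75 ± 0.17), bath-4 (-0.70 ± 0.14), bath-15 (-0.70 ± 0.15), bath-5 (-0.68 ± 0.18) and bath-7 (-0.62 ± 0.16). In bath-41 fed arrays read 1195 and 1029 and fasted arrays 809 and 718 (-0.51 ± 0.14), and bath-21 fell by 0.48 ± 0.15. Values of bath-3, bath-6 and bath-26 fell by 0.46, 0.34 and 0.34. Without quantile scaling bath-3, bath-7 and bath-26 were no longer called, and the deposited values of bath-26 overlapped between fed (72.4 and 73.0) and fasted (62.1 and 72.5) worms.

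**Figure D1:**
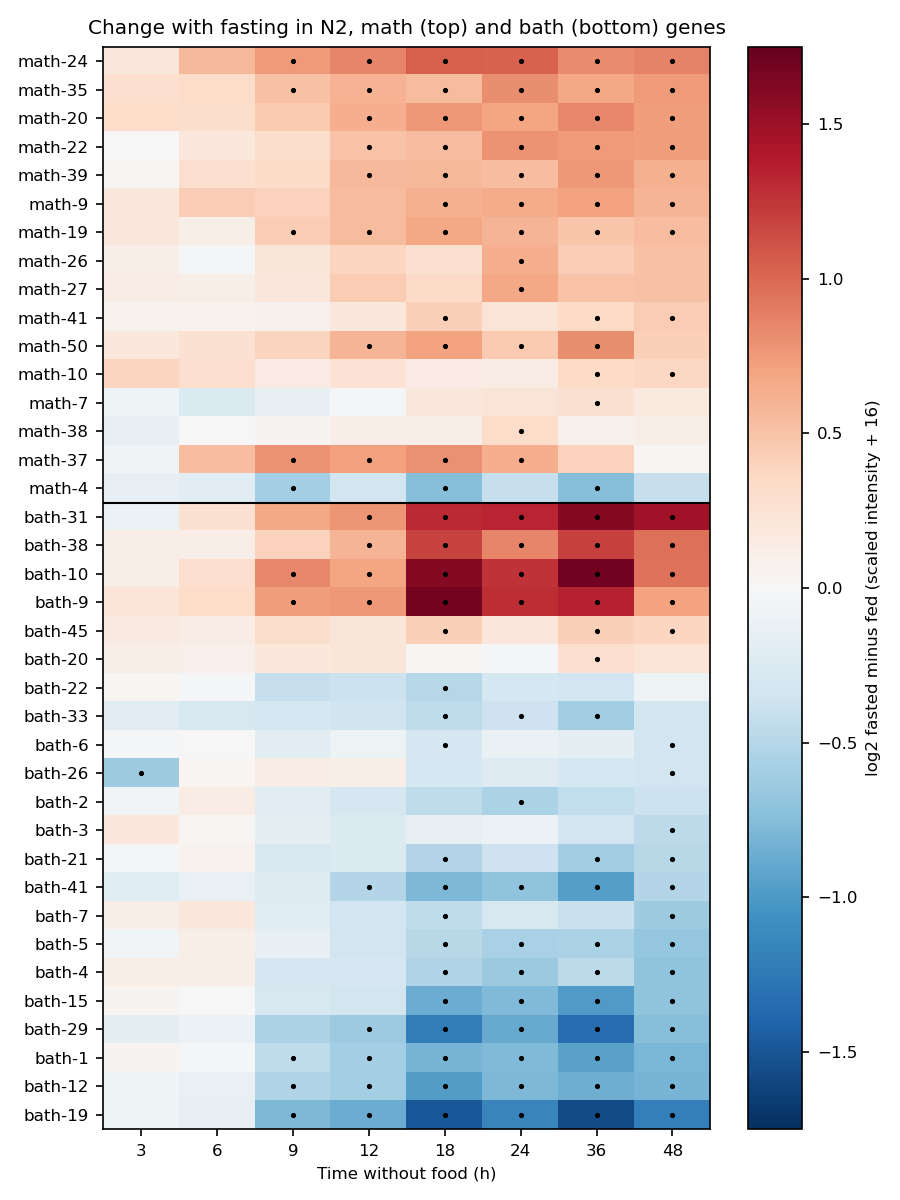
Log2 difference (color) between fasted and fed N2 worms for the 38 members called at 1 or more of 8 times without food in hours (x axis), math genes above the line and bath genes below it. Dots mark called values; 24 and 48 h are set against fed worms of the same age and the other times against fed worms at 0 h, and the upper rows are mostly red with math-4 as the exception, while the bath rows fall into a red and a blue block.

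Calls appeared with time without food. Fasted worms at 3, 6, 9, 12, 18 and 36 h were all set against the same 2 fed arrays of 0 h, so these comparisons are not independent of each other. At 3 h, when 1.21% of all genes were called (0.473% higher and 0.736% lower), bath-26 was the only member called. Its fed arrays at 0 h read 68.8 and 68.5 and its arrays at 3 h 44.9 and 43.2, a difference of -0.62 ± 0.12 (adjusted p = 0.0138 in limma). At 6, 9 and 12 h its arrays read 63.3 to 91.3 and were not called, and the call at 3 h was lost without any of the 4 arrays and without quantile scaling. A second bath-26 probe set differed by -0.12 at 3 h (adjusted p = 1). At 6 h no member was called by limma, against 2.41% of all genes (1.21% higher and 1.2% lower). With p under 0.05 before adjustment 7 members were higher and 2 lower, and the share of all genes before adjustment is not given here. With the replicate number as a block 3 members were called at 3 h and 3 at 6 h. The share of all genes in that fit is not given here.

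At 9 h 6 members were higher and 4 lower, beside 10.4% of all genes called (6.76% higher and 3.59% lower). The highest was bath-10 (0.84 ± 0.20), then math-37 (0.79 ± 0.16), math-24 (0.75 ± 0.14), bath-9 (0.73 ± 0.21) and math-35 (0.51 ± 0.15). The 4 lower members were bath-19 (-0.79 ± 0.21), math-4 (-0.59 ± 0.18), bath-12 (-0.53 ± 0.14) and bath-1 (-0.44 ± 0.13). Without quantile scaling the counts were 10 higher and 0 lower, beside 8.93% of all genes higher and 2.23% lower. The count of 10 was 4 without either fed array of 0 h and 3 without the fasted array of replicate 2. With the replicate number as a block the count at 9 h was larger, as given in the last section without a share of all genes beside it. At 12 h 12 members were higher and 5 lower, against 17.1% of all genes (10.5% higher and 6.57% lower). On the values without quantile scaling 16 were higher and 1 lower, beside 14.3% of all genes higher and 3.18% lower. The count at 12 h became smaller when any of the 4 arrays was left out. Here math-24 (0.86 ± 0.14), bath-31 (0.77 ± 0.24), bath-9 (0.76 ± 0.21), math-37 (0.72 ± 0.16) and bath-10 (0.69 ± 0.20) led the rise. The 5 lower members were bath-19 (-0.87 ± 0.21), bath-29 (-0.63 ± 0.17), bath-12 (-0.60 ± 0.14), bath-1 (-0.59 ± 0.13) and bath-41 (-0.51 ± 0.14).

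From 18 h on the number of calls stayed between 26 and 29. At 18 h 15 members were higher and 14 lower, beside 37.6% of all genes (18.3% higher and 19.3% lower). These counts were 20 and 9 without quantile scaling, beside 22.9% of all genes higher and 13.1% lower. At 36 h the counts were 17 and 11, beside 41.2% (20.1% higher and 21% lower). At 24 h, set against the fed group of equal age, 16 members were higher and 10 lower, beside 33.3% (16.9% higher and 16.4% lower). In the order of 18, 24 and 36 h, bath-9 rose by 1.68, 1.29 and 1.34 (each ± 0.21) and bath-10 by 1.61, 1.26 and 1.69 (each ± 0.20). The other large rises were in bath-31 (1.30, 1.33 and 1.60, each ± 0.24), bath-38 (1.18, 0.86 and 1.20, each ± 0.14) and math-24 (1.05, 1.03 and 0.83, each ± 0.14). The deepest falls were in bath-19 (-1.49, -1.16 and -1.57, each ± 0.21) and bath-29 (-1.21, -0.88 and -1.33, each ± 0.17). Then came bath-12 at 18 h (-0.98 ± 0.14) and 24 h (-0.78 ± 0.14), bath-15 (-0.87, -0.77 and -0.99, each ± 0.15) and bath-1 (-0.81, -0.77 and -0.94, each ± 0.13). Also among the 5 lowest at 36 h was bath-41 (-0.97 ± 0.14), and math-20 was among the 5 highest (0.84 ± 0.14).

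Across the 8 times 21 members were called higher at least at 1 time, 17 were called lower, 0 were called in both directions and 47 were never called. These counts and the lists below have no value over all genes beside them. Of all genes 31.3% to 41.2% were called at each of 18, 24, 36 and 48 h. Of the math genes math-4 alone was called lower at any time, at 9, 18 and 36 h. The members higher at each of 18, 24, 36 and 48 h were 7 math genes (math-9, math-19, math-20, math-22, math-24, math-35 and math-39) and 4 bath genes (bath-9, bath-10, bath-31 and bath-38). Those lower at each of these times were bath genes, namely bath-1, bath-4, bath-5, bath-12, bath-15, bath-19, bath-29 and bath-41. This list depends on quantile scaling, since on the values as deposited bath-4 was not called at 18 h (-0.18), 24 h (-0.41) or 36 h (-0.15) and bath-5 was not called at 18 h (-0.40). The rise of math-37 was called at 9, 12, 18 and 24 h and then not at 36 or 48 h. Its fasted arrays read 92.3 and 121.4 (18 h), 65.3 and 84.7 (36 h) and 66.4 and 71.6 (48 h). The fed arrays read 39.2 and 48.7 (0 h) and 57.1 and 52.5 (48 h), so the gap to fed worms was narrower at 48 h than at 18 h. A second math-37 probe set gave 0.57 ± 0.11 at 9 h, was still called at 36 h (0.39 ± 0.11, adjusted p = 0.0104 in limma) and gave 0.03 ± 0.11 at 48 h (adjusted p = 0.898), so the probe sets differ on 36 h. Fed worms at 48 h against fed worms at 0 h gave no call among members in limma, against 1.89% of all genes (1.28% higher and 0.613% lower). Before adjustment, with p under 0.05, 0 members were higher and 2 lower, without a share of all genes at that threshold.

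**Figure D2:**
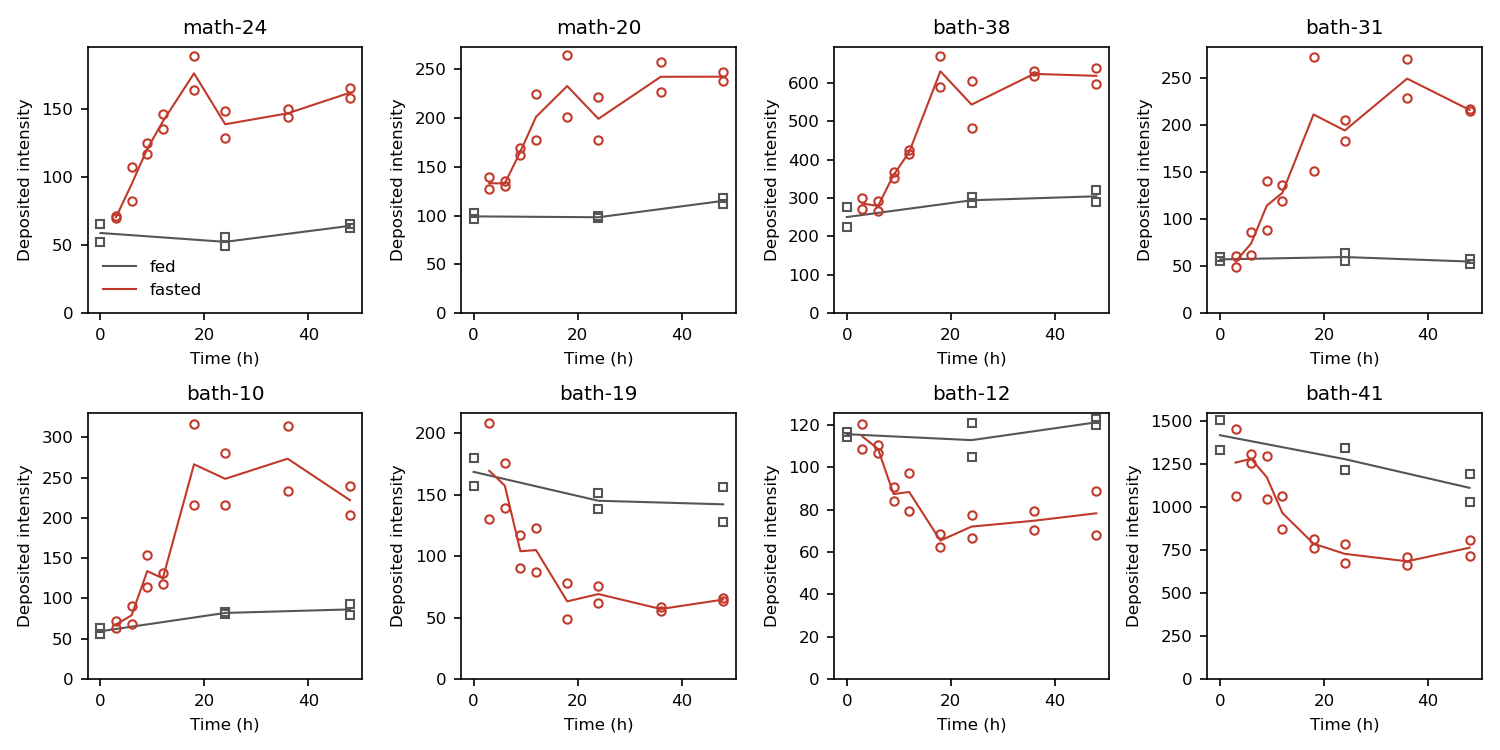
Deposited intensity (y axis, linear from 0) against time in hours (x axis) for 8 members in N2, with 1 point per array and lines through the means of 2 arrays; fed worms are grey squares and fasted worms red circles. The fasted points of math-24, math-20, bath-38, bath-31 and bath-10 lie above the fed points from 18 h, and those of bath-19, bath-12 and bath-41 lie below them.

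Several of these curves can be followed array by array in deposited intensities, whose array medians were higher from 12 h without food than in fed worms. In math-24 the fed arrays read 65.8 and 51.9 (0 h), 55.7 and 49.0 (24 h) and 65.7 and 62.6 (48 h). The fasted arrays read 71.2 and 69.8 (3 h), 82.5 and 107.1 (6 h), 116.6 and 124.8 (9 h), 146.3 and 135.6 (12 h) and 163.9 and 188.6 (18 h). At 24, 36 and 48 h they read 148.6 and 128.9, 149.9 and 143.8, and 165.6 and 158.3. Every fasted array of math-24 lay above every fed array, and the values from 18 h on were close to each other.

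In math-20 the fed arrays read 96.0 to 117.8 over the 3 fed groups. Its fasted arrays read 139.6 and 126.8 (3 h), 130.2 and 135.3 (6 h), 161.7 and 169.5 (9 h), 224.5 and 177.7 (12 h), 201.1 and 264.3 (18 h), 221.1 and 177.0 (24 h), 227.0 and 257.4 (36 h) and 246.9 and 237.7 (48 h). All fasted arrays were above all fed arrays here too. In bath-38 the fed arrays read 225.6 and 275.6 (0 h) and 302.8 and 286.0 (24 h). Its fasted arrays read 271.7 and 300.7 (3 h) and 266.7 and 292.1 (6 h), within the fed range. They then read 367.7 and 352.8 (9 h), 414.0 and 426.2 (12 h), 589.9 and 672.1 (18 h), 605.0 and 483.3 (24 h) and 630.6 and 617.9 (36 h), so bath-38 separated from fed worms later than math-24 did in these arrays, a difference that was not tested.

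The pseudogene math-35 read 25.9 to 37.7 in the 6 fed arrays. Fasted arrays read 51.2 and 37.4 (3 h), 46.4 and 42.9 (6 h), 46.9 and 64.7 (9 h), 67.3 and 59.7 (12 h), 64.3 and 61.4 (18 h), 61.8 and 68.4 (24 h), 63.8 and 80.0 (36 h) and 72.1 and 76.1 (48 h). Apart from the array of replicate 2 at 3 h, every fasted array lay above the fed range. The dim probe set of math-10 read 22.8 to 24.5 when fed. Fasted arrays read 34.3 and 35.9 (3 h), 32.6 and 32.9 (6 h), 27.1 and 29.5 (9 h), 30.1 and 33.8 (12 h), 30.2 and 27.2 (18 h), 30.4 and 23.3 (24 h), 32.8 and 38.8 (36 h) and 42.4 and 32.7 (48 h). Its arrays at 3 h were thus as high as most later ones, and it was called at 36 h (0.35 ± 0.09) and 48 h (0.36 ± 0.09).

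In the other direction, bath-19 read 128.1 to 180.1 in the 6 fed arrays. Its fasted arrays read 208.5 and 130.5 (3 h) and 175.9 and 139.0 (6 h), in or above the fed range, and 117.6 and 90.3 (9 h), 123.2 and 86.9 (12 h), 77.9 and 48.6 (18 h), 76.1 and 62.2 (24 h) and 55.0 and 59.1 (36 h). From 9 h every fasted array was below every fed array. The fed means of bath-29 were 163 at 0 h and 109 at 48 h, a difference that was not called, and its difference against fed worms of the same age at 48 h (-0.75) was smaller than that against 0 h worms at 36 h (-1.33).

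**Figure D3:**
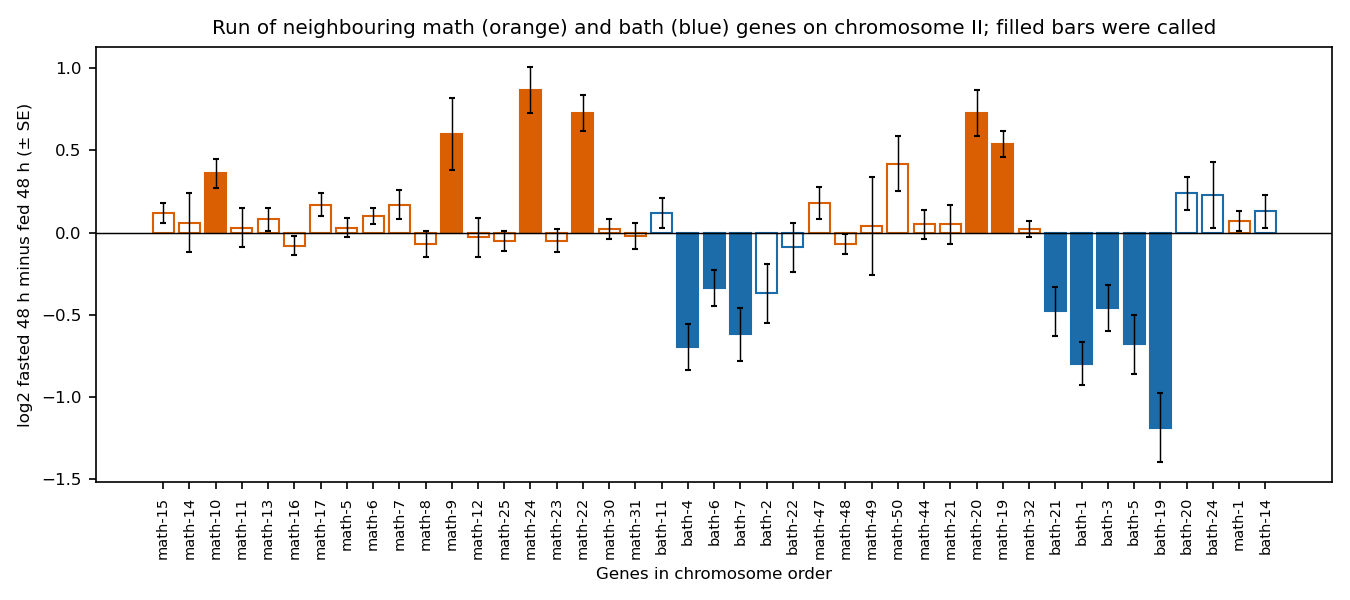
Log2 difference between fasted and fed N2 worms at 48 h (y axis, bars with SE, n = 2 per group) for the 43 genes of the longest run on chromosome II in chromosome order (x axis), math genes in orange and bath genes in blue, filled where called. The 6 filled orange bars are above 0 and the 8 filled blue bars below 0.

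Within the longest run on chromosome II math genes and bath genes were called in opposite directions. At 48 h 6 of its 29 math genes rose and 0 fell, and 0 of its 14 bath genes rose and 8 fell. Of all genes 16.7% were higher and 14.6% lower. Mean intensity was under 32 in every group for math-1, math-5, math-6, math-8, math-13, math-16, math-17, math-23, math-25, math-30, math-32, math-44 and math-48. A fall could hardly be seen in these. The 2 bath genes that dim, bath-23 and bath-30, lie outside this run. Fed means at 48 h were also under 32 in math-10, math-19 and math-22, which rose (23.8, 25.2 and 22). They were higher in math-9, math-20 and math-24, which also rose (39.1, 115 and 64.1). The math genes that rose were math-10, math-9, math-24, math-22, math-20 and math-19, which are spread through the run. The bath genes that fell stood in 2 stretches, bath-4, bath-6 and bath-7 in the first and bath-21, bath-1, bath-3, bath-5 and bath-19 in the other. The last 2 math genes that rose, math-20 and math-19, stand next to the second of these stretches, separated from bath-21 by math-32, whose probe set was close to the lowest value in every group. A run of 8 bath genes, 6 of them measured, held calls of both signs, with bath-10 and bath-9 higher and bath-29 lower. In the run of math-28, math-27, math-26, math-3, math-4 and math-2 no gene was called at 48 h. Of the 19 measured pseudogenes, math-35 rose and bath-12 and bath-6 fell at 48 h, and in these 3 the probe sets are unique to the gene by suffix.

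Outside chromosome II, bath-15 and bath-41 on chromosome III fell at 48 h, and bath-42 on the same chromosome was not called at any time. The probe sets of bath-42, bath-44 and bath-41 gave the highest intensities in the family, which says nothing of RNA levels relative to other genes. In bath-42 group means lay between 3381 and 3711 in the time course and in bath-44 between 1089 and 1359, with no call for either in any of the 19 comparisons. For math-33, on chromosome V, the 48 h difference was 0.20 ± 0.29 (adjusted p = 0.657 in limma), and it was called in no comparison. Its replicates lay far apart, with 747.8 and 408.2 at 3 h and 646.8 and 347.9 at 12 h. In the mutant set the array of replicate 1 was highest in all 8 groups, with 649.9 against 311.5 and 287.9 in fed N2.

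The machinery that BTB adaptors work with was called at about the rate of the array at 48 h. Of 14 genes of the CUL-3 ligase core and of its control by the ubiquitin-like protein NED-8, 2 were higher and 2 lower (28.6% called, beside 31.3% of all genes), with a list median of -0.10 beside -0.02 over all genes. Higher were dcn-1, which helps to attach NED-8 to cullins (0.70 ± 0.15), and cand-1, which exchanges adaptors on cullins (0.62 ± 0.15). Lower were csn-1, a subunit of the COP9 signalosome that removes NED-8 (-0.61 ± 0.17), and rbx-2 (-0.46 ± 0.17). The latter is a RING subunit of cullin ligases, and its place in those of CUL-3 was not checked. The scaffold gene cul-3 itself differed by -0.27 ± 0.13 (adjusted p = 0.153 in limma). Of 5 genes of the MEL-26 pathway, 0 were higher and mei-2, a subunit of the katanin complex of the meiotic spindle, was lower (-0.75 ± 0.12). The adaptor gene mel-26 differed by -0.24 ± 0.12 (adjusted p = 0.15). Of 24 genes of other BTB classes 5 were higher and 3 lower (33.3% called), with a median of 0.07. Among them btb-6 (1.82 ± 0.26) and btb-10 (1.53 ± 0.27) rose, and btb-20 (-1.14 ± 0.16) and btb-7 (-0.70 ± 0.11) fell.

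Another large set of substrate adaptors are the F-box genes, which serve cullin ligases of a different type. At 48 h 35 of 171 fbxa genes were higher and 14 lower (median 0.05), and 76 of 139 fbxb and fbxc genes were higher and 3 lower (median 0.52). The corresponding counts of the math and bath genes together were 14 and 13 of 85 (median 0.04). Differences between these lists were not tested.

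Markers of cell types moved with fasting in the same arrays. Of 20 germline and oocyte markers 0 were higher and 10 lower at 48 h (median -0.74), with a summed intensity of 44280 to 47610 in fed and 28030 to 31310 in fasted worms of 48 h, and none of the 20 is at 0. At 18 h 17 of the 20 were lower (median -1.10) and the sums were 18980 and 29930. Of 10 neuron markers 4 were higher and 0 lower at 48 h. Of 7 intestine markers 1 was higher and 2 lower, of 8 body muscle markers 2 and 3, of 6 hypodermis markers 0 and 3, and of 29 sperm markers 1 and 0. The part of these shifts in the changes of the math and bath genes was not tested. In RNA of whole worms, fewer cells of a type and less RNA per cell cannot be told apart.

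In the mutant set, N2 worms were fasted and fed again in 3 arrays each, with no array in common with the time course. Here 6 members rose (5 math and 1 bath gene) and 0 fell, beside 5.92% of all genes called (3.63% higher and 2.28% lower). With the replicate number as a block 9 were higher and 1 lower, beside 12.6% of all genes (7.76% higher and 4.8% lower). The count of 6 was 1 without the fed arrays of replicate 2 or 3 or the fasted array of replicate 3, 3 without the fasted array of replicate 2 and 11 without the fed array of replicate 1. With the block bath-10 (0.73 ± 0.17, adjusted p = 0.0062), bath-9 (0.61 ± 0.15, adjusted p = 0.00712) and math-22 (0.38 ± 0.11, adjusted p = 0.0298) were also called higher, and bath-33 was called lower (-0.61 ± 0.19, adjusted p = 0.0365 in limma). A second bath-33 probe set gave no call there in the fit without the block (0.00 ± 0.13, adjusted p = 0.993).

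The strongest member was math-24. Its fed N2 arrays read 67.8, 56.3 and 58.0 and its fasted arrays 132.2, 135.1 and 149.9. The groups were far apart, the log2 difference was 0.88 ± 0.14 (adjusted p = 0.000299 in limma), and the call held without any of the 6 arrays. In math-20 the fed arrays read 105.3, 72.4 and 88.2 and the fasted arrays 164.1, 159.6 and 187.5, a difference of 0.72 ± 0.19 (adjusted p = 0.024). In bath-38 they read 381.7, 319.3 and 299.6 when fed and 550.7, 462.1 and 633.9 when fasted (0.64 ± 0.16, adjusted p = 0.0178). The groups did not overlap in either gene.

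The probe set of math-35 read 38.6, 33.1 and 31.3 in fed and 60.03, 63.1 and 76.5 in fasted N2 worms (0.61 ± 0.14, adjusted p = 0.00929 in limma). That of math-10 read 21.9, 22.1 and 23.9 in fed and 43.0, 37.4 and 48.0 in fasted worms (0.57 ± 0.17, adjusted p = 0.0483). That of math-37 read 49.4, 28.1 and 37.7 in fed and 54.8, 64.2 and 65.5 in fasted worms (0.44 ± 0.12, adjusted p = 0.0312). The call of math-37 was lost with an offset of 1 (adjusted p = 0.0504) and its second probe set differed by 0.27 (adjusted p = 0.133). All 3 genes were without overlap between groups, but the call of math-10 was lost when any of the 6 arrays was left out and with an offset of 50 (0.33, adjusted p = 0.0958). After an array was left out math-37 was called in 1 of 6 fits, math-20 in 2, and bath-38 and math-35 in 3 each.

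**Figure D4:**
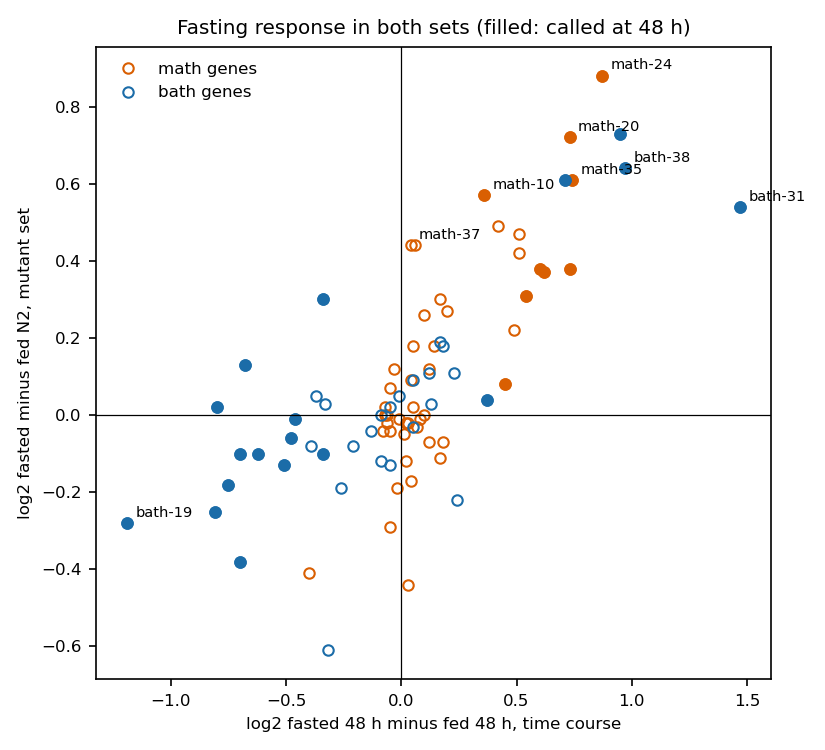
Log2 difference between fasted and fed N2 worms at 48 h in the time course (x axis) and in the mutant set (y axis) for 85 members, with 1 point per gene, math in orange and bath in blue, filled where called at 48 h. The filled points right of 0 all lie above 0 on the y axis, and those left of 0 lie between -0.38 and 0.30 on it.

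Both designs called bath-38, math-10, math-20, math-24 and math-35 higher, which is 35.7% of the 14 members higher at 48 h and 83.3% of the 6 members higher in the mutant set. With the block 8 members were higher in both. All 14 members that rose at 48 h had a positive difference in N2 of the mutant set, between 0.04 and 0.88 with a median of 0.56, while the median over all genes was -0.01. Of all 17118 genes 8251 had a positive difference there. The same overlap and signs are not given here for all genes higher at 48 h. They are thus not shown to be particular to the family. Of the 13 that fell at 48 h 10 had a negative difference, but the values were small, between -0.38 and 0.30 with a median of -0.10, and none was called. For bath-19 the 3 fed N2 arrays read 182.2, 86.7 and 91.2 and the fasted arrays 127.1, 85.2 and 91.0, which overlap, although the fasted array was lower in 3 of 3 pairs. Across the 85 members the 2 differences correlated with Pearson r = 0.73 and Spearman rho = 0.70, where members of a run are not independent of each other. The correlation over all genes is not given here. The germline and oocyte markers gave 0 calls in N2 of the mutant set (0 of 20 in limma, with p under 0.05 before adjustment 1 higher and 3 lower, median -0.28), with sums of 38360 to 45860 in fed and 33850 to 39770 in fasted worms. Other marker lists held calls there. Of 7 intestine markers 0 were higher and 2 lower in N2 (median -0.91), with sums of 11820 to 14270 in fed and 5047 to 5995 in fasted worms. Of 8 body muscle markers 0 were higher and 1 lower (median -0.96; sums 3683 to 8559 and 1899 to 4180), and of 10 neuron markers 1 was higher. None of the 6 hypodermis or 29 sperm markers was called in limma (2 hypodermis and 0 sperm markers lower, and 0 higher, with p under 0.05 before adjustment). Their part in the members' differences was not tested.

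Of the related lists, 0 of 14 CUL-3 and NED-8 genes and 0 of 5 MEL-26 pathway genes were called in N2 of the mutant set (1 of 14 and 0 of 5 at an unadjusted p under 0.05). There cul-3 differed by 0.16 ± 0.25 (adjusted p = 0.853 in limma) and mel-26 by 0.27 ± 0.24 (adjusted p = 0.677). Of the 24 other BTB genes btb-6 rose (1.20 ± 0.20). Among F-box genes 3 fbxa genes were higher and 3 lower, and 8 fbxb and fbxc genes were higher and 0 lower.

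**Figure D5:**
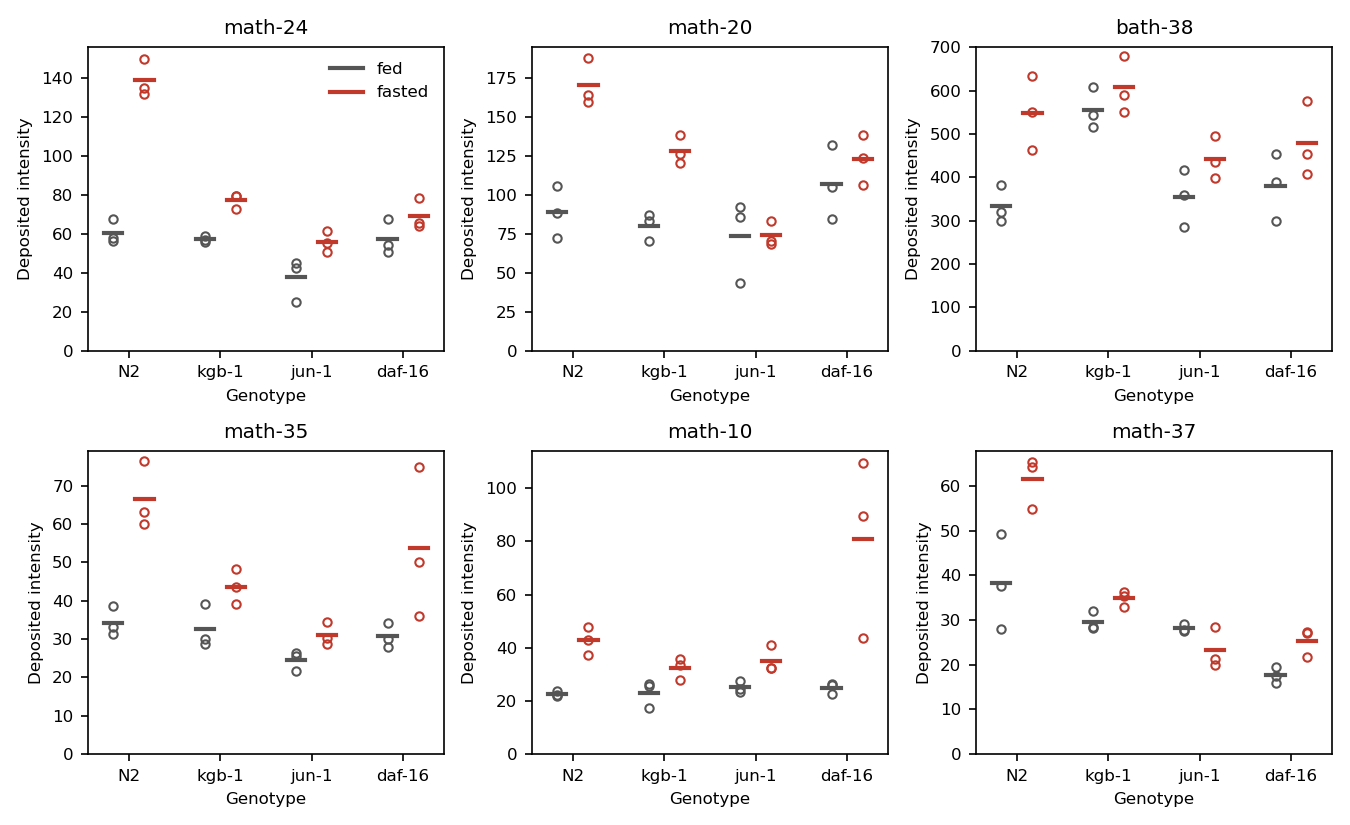
Deposited intensity (y axis, linear from 0) in fed (grey) and fasted (red) worms of 4 genotypes (x axis) for the 6 members that rose in N2, with 1 point per array and bars at the means of 3 arrays. Fasted N2 points lie above fed N2 points in each panel, and math-10 in daf-16 worms, 22.8 to 26.3 when fed and 43.7 to 109.6 when fasted, also shows no overlap.

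The same members were then followed in the mutants. Fasting gave no member call in kgb-1 worms, where 1.06% of all genes were called (0.222% higher and 0.835% lower). It gave none in jun-1 worms, where 3.2% were called (0.935% higher and 2.26% lower). Before adjustment, with p under 0.05 in limma, 3 members were higher and 1 lower in kgb-1 and 3 higher and 2 lower in jun-1. Shares of all genes before adjustment are not given here. With the block jun-1 had 0 higher and 2 lower, bath-33 (-0.66 ± 0.19, adjusted p = 0.0338) and math-14 (-0.69 ± 0.20, adjusted p = 0.0428), beside 7.7% of all genes called (3.27% higher and 4.43% lower), which is a larger share than 2 of 85 members. The second bath-33 probe set differed by -0.04 in jun-1 (adjusted p = 0.949, without the block). In kgb-1 the block gave 0 members, beside 2.1% of all genes. In daf-16 worms 2 members rose and 0 fell, beside 4.94% of all genes (2.48% higher and 2.47% lower). With the block 4 rose, beside 9.73% of all genes (5.32% higher and 4.4% lower), a share of members no larger than that of all genes. The 4 were math-10, bath-36, math-35 and bath-31 (0.57 ± 0.18, adjusted p = 0.0465). Over the 14 members that rose at 48 h the median difference was 0.28 in kgb-1, 0.14 in jun-1 and 0.25 in daf-16, positive in 13, 9 and 11 of them, and 0.56 in N2. The medians over all genes were 0.01, 0.04 and 0.02 in the 3 mutants. Over the 13 members that fell at 48 h the medians were -0.01, 0.09 and 0.06. Medians in the mutants are not given here for all genes that rose or fell at 48 h. The smaller values than in N2 are thus not shown to be particular to the family.

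In math-24 fed kgb-1 worms read 57.1, 55.9 and 59.2 and fasted ones 73.1, 79.5 and 79.5. Fed jun-1 worms read 42.6, 45.2 and 25.0 and fasted ones 50.5, 55.3 and 61.5. Fed daf-16 worms read 50.6, 54.2 and 67.9 and fasted ones 63.9, 78.7 and 65.6. Fasted worms of each mutant lay below the lowest fasted N2 array of 132.2, and only in daf-16 did fed and fasted arrays overlap. The fasting differences were 0.31, 0.40 and 0.18 (each ± 0.14, adjusted p = 0.796, 0.159 and 0.68 in limma). The response minus that of N2 was -0.57 ± 0.19 in kgb-1 (adjusted p = 1), -0.48 ± 0.19 in jun-1 (adjusted p = 0.932) and -0.70 ± 0.19 in daf-16 (adjusted p = 0.376 in limma). These differences from N2 share the 6 N2 arrays, and none passed the test.

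The response of math-20 was 0.53 in kgb-1, -0.01 in jun-1 and 0.20 in daf-16 (each ± 0.19). Its jun-1 arrays read 85.6, 92.0 and 43.4 when fed and 68.4, 83.4 and 70.5 when fasted, which overlap. In kgb-1 they read 83.0, 86.8 and 70.1 against 125.9, 138.5 and 120.0, without overlap, and in daf-16 84.3, 131.7 and 105.0 against 106.4, 138.1 and 123.7, with overlap. Within replicate numbers the fasted array of math-20 was higher in 3 of 3 pairs in kgb-1 and in daf-16 and in 1 of 3 in jun-1. The math-20 difference from N2 was largest in jun-1 (-0.72 ± 0.26, adjusted p = 0.757). For bath-38, kgb-1 arrays read 608.5, 543.3 and 516.0 when fed and 680.8, 551.3 and 589.6 when fasted, jun-1 arrays 358.3, 417.5 and 284.8 against 434.4, 494.5 and 398.9, and daf-16 arrays 453.8, 388.5 and 300.0 against 576.4, 407.6 and 453.1. Fed and fasted arrays of bath-38 overlapped in all 3 mutants, with differences of 0.14, 0.25 and 0.38 (each ± 0.16), but within pairs of 1 replicate number the fasted array was higher in 9 of 9. None of the 3 differences was called, with or without the block.

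In math-35 kgb-1 arrays read 39.1, 30.0 and 28.8 when fed and 43.5, 48.4 and 39.0 when fasted, and jun-1 arrays 26.4, 25.5 and 21.8 against 34.4, 30.4 and 28.6. Its daf-16 arrays read 27.8, 34.2 and 30.0 against 36.1, 74.8 and 50.1, a difference of 0.48 ± 0.14 that passed with the block (adjusted p = 0.0301) and not without it (adjusted p = 0.0529). In math-37 the response was 0.15 in kgb-1, -0.24 in jun-1 and 0.26 in daf-16 (each ± 0.12), and its difference from N2 in jun-1 was -0.68 ± 0.17 (adjusted p = 0.164 in limma). Its jun-1 arrays read 27.9, 29.2 and 27.6 when fed and 28.5, 19.8 and 21.3 when fasted.

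The largest response of any member in the mutants was that of math-10 in daf-16 worms. Fed daf-16 arrays read 22.8, 25.9 and 26.3 and fasted arrays 43.7, 109.6 and 89.7. All fasted arrays were above the fed ones but they differed widely, and the log2 difference was 1.14 ± 0.17 (adjusted p = 0.000116 in limma). In kgb-1 worms math-10 read 17.3, 25.6 and 26.3 against 28.0, 35.7 and 33.4 (0.32 ± 0.17), and in jun-1 worms 27.5, 24.4 and 23.4 against 32.3, 41.1 and 32.2 (0.26 ± 0.17). The daf-16 response of math-10 exceeded that of N2 by 0.57 ± 0.24 (adjusted p = 1 in limma). The other member called in daf-16 was bath-36, on chromosome V, with fed arrays of 120.6, 123.4 and 183.7 and fasted arrays of 272.1, 301.3 and 274.6 (1.01 ± 0.26, adjusted p = 0.0248). Its N2 arrays overlapped, with 180.7, 219.7 and 177.0 when fed and 253.4, 279.2 and 207.5 when fasted, with the fasted array higher in 3 of 3 pairs, and the daf-16 response exceeded that of N2 by 0.82 ± 0.37 (adjusted p = 1). The daf-16 count of 2 became 1 without the fed array of replicate 2 or the fasted array of replicate 2 or 3, and 4 without the fasted array of replicate 1.

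None of the 85 members was called for a response that differed from N2, in kgb-1 (0.0234% of all genes called, 0% higher and 0.0234% lower), jun-1 (0.204%, 0.0175% higher and 0.187% lower) or daf-16 (0.117%, 0.00584% higher and 0.111% lower). Before adjustment, with p under 0.05 in limma, 0 members were higher and 2 lower in kgb-1, 1 and 9 in jun-1, and 4 and 2 in daf-16. The block gave 0 calls as well, beside 0.0993%, 0.508% and 0.275% of all genes. The 9 lower members in jun-1 were all math genes (math-7, math-9, math-14, math-19, math-20, math-24, math-35, math-37 and math-38), and the higher one was bath-46, all named after their values were seen. The share of all genes before adjustment is not given here. Among these members math-20, math-24, math-35 and math-37 were called higher in N2, whose response is subtracted in this comparison. A difference between math and bath genes was not tested.

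Fed mutants were set against the same 3 fed N2 arrays. In kgb-1 1 member was higher and 1 lower, beside 2.02% of all genes (0.462% higher and 1.56% lower). With the block bath-39 was called higher too (0.49 ± 0.14, adjusted p = 0.033 in limma), beside 6.24% of all genes (2.21% higher and 4.03% lower). Fed kgb-1 worms had more bath-38 signal, with 608.5, 543.3 and 516.0 against 381.7, 319.3 and 299.6 in fed N2 (0.61 ± 0.16, adjusted p = 0.0496 in limma). All 3 kgb-1 arrays were above all N2 arrays, at about the level of fasted N2 worms, and the call was lost with an offset of 1 (adjusted p = 0.0515) and without quantile scaling (adjusted p = 0.0707). The lower member was bath-26, with 27.7, 33.1 and 26.98 in kgb-1 against 72.2, 53.2 and 37.9 in N2 (-0.58 ± 0.14, adjusted p = 0.0398). Fed jun-1 arrays of bath-26 read 28.8, 30.4 and 32.1 (-0.47 ± 0.14, adjusted p = 0.152) and fed daf-16 arrays 29.5, 41.3 and 35.3 (-0.41 ± 0.14, adjusted p = 0.51), and its second probe set differed by -0.38 in kgb-1 (adjusted p = 0.122). The 2 calls of kgb-1 became 0 without any fed kgb-1 array or the fed N2 array of replicate 1 or 2, and 1 without that of replicate 3.

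In fed daf-16 worms, where 0.473% of all genes were called (0.0351% higher and 0.438% lower), math-37 was lower. Its arrays read 19.6, 16.01 and 17.5, at or near the lowest deposited value, against 49.4, 28.1 and 37.7 in fed N2, and the difference was -0.66 ± 0.12 (adjusted p = 0.00735 in limma). Its second probe set differed by -0.16 (adjusted p = 1). The count of 1 was 2 without the fed daf-16 array of replicate 1 and 0 without that of replicate 2. In fed jun-1 worms no member was called, against 1.38% of all genes (0.374% higher and 1% lower). Before adjustment (p under 0.05 in limma) 10 members were higher and 5 lower. The share of 1.38% is after adjustment, and the share of all genes before it is not given here. The block fit called math-38 higher (0.78 ± 0.20, adjusted p = 0.0388), beside 2.94% of all genes.

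Sperm genes differed widely between arrays of the mutant set. The summed intensity of 29 sperm markers ran from 2509 to 97550 there and from 3680 to 9393 in the time course, and the array of replicate 2 was highest in all 8 groups. The bath-33 probe set, named after its values were seen, read 43.6, 106.2 and 66.4 in fed N2 and 37.4, 105.0 and 87.9 in fed daf-16 worms, in replicate order, where the sperm sums were 5486, 37200 and 12250 and 2895, 97550 and 29310. In both groups the order of the arrays by bath-33 was the order by sperm markers, and their part in the bath-33 differences with the block was not tested.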

How the data were processed

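The authors deposited a linear intensity for each probe set on each array, computed with PLIER per the submitters' processing notes, with version and normalization not given in the sources used here. No deposited value is under 16.0003, so an offset was already in them. Testing used 22548 probe sets, without 77 controls. GEO's platform table gave 20766 of them 1 gene symbol, 887 several and 895 none. Values were taken as log2(intensity + 16), quantile normalized within each set of arrays and fitted with limma 3.58.1 (R 4.3.3; lmFit, eBayes with trend, 1 coefficient per group), two-sided, with Benjamini-Hochberg adjustment over all probe sets in each of 19 comparisons. Counts use 1 probe set per gene, the brightest.

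The members and lists were chosen with earlier results of these data known. Called members were named up to 10 in each direction at 48 h and in N2 of the mutant set and up to 5 elsewhere, with the 3 brightest and math-33 always. Values in every array were given for members called in both designs, and for other members shown in the plots after their values were seen.

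In the mutant set, arrays sharing a replicate number deviated together in every comparison (correlations of 0.16 to 0.74), so the number was taken to pair them. The counts and adjusted p given first are of the fit without it, and those with the number as a block stand beside them where they change a call. In the time course the correlations were 0.29 to 0.62, within the range of the mutant set. With 2 arrays per group the 2 values of a comparison are equal by construction, which fixes neither their size nor their sign. The labels do not say that equal numbers mark a shared day, and the number was taken as a name there. Whether it marks a pairing in the time course was not tested. The fit with it as a block called more members at 3, 6 and 9 h. The arrays per group limit the precision. On simulated data with 22548 probe sets, changes of 0.5, 0.75, 1 and 2 (log2) were called in 40%, 78%, 90% and 94% of cases at 48 h, and in 16%, 42%, 76% and 96% in N2 of the mutant set. Each size was given to 50 probe sets drawn from the whole array, with noise independent between arrays. In the data 31.3% of all genes were called at 48 h, arrays of 1 replicate number deviated together and many members were dim. These rates need not hold for the members. Alternatives were the values as deposited, offsets of 1 and 50, the brighter probe sets, the replicate block, another probe set, each array left out, and, chosen after seeing the data, leaving out the 3 arrays least like their group.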

Additional observations from a re-analysis of the deposited data

Results flagged for a closer look

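Some probe sets carry the symbols of 2 genes of the family or of a family member and another gene, and were outside the comparisons above. At 48 h 3 of them were lower in fasted than in fed N2 worms. Both probe sets shared by bath-29 and bath-30 differed by -0.53 (from 1700 to 1180 in 1, adjusted p = 0.0034 in limma, and from 544 to 384 in the other, adjusted p = 0.0113). The probe set shared by bath-27 and the gene F14D2.15 differed by -0.89 (from 809 to 432, adjusted p = 0.00074). They were picked out because they hold a signal in data that the comparisons did not use, and which of the genes gave it cannot be told apart.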

How the results depend on the processing

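Of 149 called values of members, 128 kept their call and 21 lost it on the values as deposited, without a change of sign. With offsets of 1 and 50, 147 and 146 kept it, and with the replicate block all 149. Among probe sets brighter than the median, which hold 28 members (time course) and 20 (mutant set), 86 of 86 kept it. With another probe set of the gene 4 of 12 kept the call, 5 lost it and 3 turned, all of bath-33, to 0.04 at 18 h, 0.15 at 24 h and 0.05 at 36 h, and the cause was not tested.

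Counts of called members that moved by over 1.5 times were as follows. On the values as deposited there were 0 at 3 h, 1 at 6 h, 10 in N2, and 1 each in fed kgb-1 and fed jun-1 worms. The 10 in N2 were all higher, beside 5.02% of all genes higher and 1.88% lower. An offset of 1 gave 1 at 6 h and 1 in fed kgb-1 worms. The brighter probe sets, with fewer members tested, gave 0 at 3 h, 1 at 6 h, 17 at 18 h, 17 at 36 h, 2 in N2, 1 in fasted daf-16, 1 in fed kgb-1 and 0 in fed daf-16 worms. The replicate block gave 3 at 3 h, 3 at 6 h, 21 at 9 h and 1 for fed worms of 48 against 0 h. In the mutant set it gave 10 in N2, 2 in jun-1, 4 in daf-16 and 1 in fed jun-1 worms. Its numbers were taken as names in the time course (correlations of 0.29 to 0.62). Shares of all genes with the block are not given here for the time course. Its counts there cannot be set against the shares of the fit without the block. Without 3 daf-16 arrays (fasted replicates 1 and 2 and fed replicate 1, the lowest correlations) there were 1 in jun-1, 1 for the daf-16 response minus N2, 1 in fed jun-1 and 3 in fed daf-16 worms.

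With each array left out in turn, the lowest and highest counts were 0 and 0 (3 h), 0 and 1 (6 h), 3 and 8 (9 h), 8 and 10 (12 h), 21 and 26 (18 h), 19 and 22 (24 h), 24 and 27 (36 h), 18 and 23 (48 h), 0 and 0 (fed worms of 48 against 0 h), 1 and 11 (N2), 0 and 0 (kgb-1), 0 and 1 (jun-1) and 1 and 4 (daf-16). For the responses minus N2 they ran from 0 to 0 in kgb-1, 0 to 1 in jun-1 and 0 to 1 in daf-16, and for fed mutants from 0 to 1 in kgb-1, 0 to 1 in jun-1 and 0 to 2 in daf-16. A lone array of a group was taken to vary like the other groups. Of the 27 members called at 48 h 14 were called in every such fit. In the time course 2 arrays per group, and at low intensity the offset, limit what can be seen.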
